A study of Mus musculus with 8 samples.

Results

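The genes described here are 42 mitosis and G2/M genes of the cell cycle, chosen by name and all found in a table of 55335 genes. They are 10 cyclins, mitotic kinases and an activating phosphatase, 8 kinesins, 10 kinetochore and checkpoint genes, 6 genes of the chromosomal passenger complex and cytokinesis, 5 spindle and chromosome proteins, and 3 regulators of the anaphase-promoting complex and of transcription. Expression was measured by RNA-seq in RAW264.7 cells, a mouse macrophage-like tumour line, after 3 days with a bone scaffold. In 4 libraries the scaffold was hydroxyapatite doped with magnesium ions (HA/Mg), and in the other 4 it was the Trio-Active bone scaffold (TABS), whose components the labels do not describe. Cells without a scaffold were not analysed here, so each value compares TABS with HA/Mg in 1 cell line. Groups follow the sample titles. The library names carry the letter H for TABS and L for HA/Mg, and if the groups were exchanged, all directions given here would turn around.

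A dividing cell builds up the products of these genes in G2 and uses them in mitosis. Cyclin B with Cdk1 starts mitosis, the Polo and Aurora kinases shape the spindle, kinesins move chromosomes and microtubules, and kinetochores tie chromosomes to the spindle. A checkpoint holds back the anaphase-promoting complex, the ubiquitin ligase that ends mitosis, until every kinetochore is attached, and cytokinesis then parts the daughter cells. Most of these genes are off in resting cells and are switched on together late in the cycle by the MuvB core with B-Myb and FoxM1, which acts at the cell cycle genes homology region (CHR) of their promoters, often beside boxes bound by NF-Y. RAW264.7 cells keep dividing in culture.

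Promoter windows from RefSeq (build GRCm38.p6, 250 bases before to 50 after each annotated start) were matched by symbol for 35 of the 42 genes, and motifs were searched as letters on both strands. The CHR core TTTGAA was found in 26 of the 35 genes (74.3%), against 14.3% of 7425 tested genes and 20.2% of all 27025 genes with a window. The close variant TTTAAA, which reads the same on both strands, was in 12 of 35 (34.3%, against 10.5% and 14.9%), and the NF-Y box CCAAT in 26 of 35 (74.3%, against 43.5% and 41.1%). The CHR core and the NF-Y box occurred together in 22 of 35 genes (62.9%, against 5.89% of tested genes). The 6 stretches below show the layout in 2 B-type cyclins, the anaphase activator Cdc20, the kinase Plk1, the proliferation marker Mki67 and Bub3. They run 5′ to 3′ from 170 bases before the start to 10 after it, and the capitals mark the CHR core, its variant and the NF-Y box on either strand.
Cdc20, chr4:118437334-118437513, minus strand: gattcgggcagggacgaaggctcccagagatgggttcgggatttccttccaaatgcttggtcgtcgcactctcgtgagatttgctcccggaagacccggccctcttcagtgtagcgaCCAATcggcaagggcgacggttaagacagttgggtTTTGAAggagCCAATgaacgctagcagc
Ccnb2, chr9:70421545-70421724, minus strand: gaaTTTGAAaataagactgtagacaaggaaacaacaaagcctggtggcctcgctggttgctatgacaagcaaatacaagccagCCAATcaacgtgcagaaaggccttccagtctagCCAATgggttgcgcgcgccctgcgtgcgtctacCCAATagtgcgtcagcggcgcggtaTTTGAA
Mki67, chr7:135716370-135716549, minus strand: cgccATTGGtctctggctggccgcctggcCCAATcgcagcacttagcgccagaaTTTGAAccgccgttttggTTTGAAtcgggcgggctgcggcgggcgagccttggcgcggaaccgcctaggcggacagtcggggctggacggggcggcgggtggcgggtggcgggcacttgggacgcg
Ccnb1, chr13:100786477-100786656, minus strand: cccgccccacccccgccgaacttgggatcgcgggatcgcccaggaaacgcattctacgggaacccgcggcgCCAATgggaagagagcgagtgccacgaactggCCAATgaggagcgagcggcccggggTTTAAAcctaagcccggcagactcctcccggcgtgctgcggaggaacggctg
Plk1, chr7:122159265-122159444, plus strand: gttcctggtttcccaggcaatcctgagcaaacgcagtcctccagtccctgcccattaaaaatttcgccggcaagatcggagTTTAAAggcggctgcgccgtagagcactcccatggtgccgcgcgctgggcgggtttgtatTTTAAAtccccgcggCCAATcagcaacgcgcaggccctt
Bub3, chr7:131560200-131560379, plus strand: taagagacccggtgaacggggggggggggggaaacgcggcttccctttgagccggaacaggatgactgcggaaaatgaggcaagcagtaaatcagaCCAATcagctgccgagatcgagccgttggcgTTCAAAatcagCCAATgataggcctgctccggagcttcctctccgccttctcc
In Cdc20 the core began 18 bases before the start, between CCAAT boxes at 53 and 8 bases before it. Ccnb2 had 3 CCAAT boxes (87, 54 and 21 bases before the start) and the core from base 5 of the transcript, with another 167 bases before the start. Mki67 held the core at 116 and at 98 bases before the start, and Bub3, shown for the upstream one of its 2 annotated starts, held it on the opposite strand at 43. Ccnb1 had the variant at 42 bases, and Plk1 had the variant at 89 and 29 bases before the start and the core from base 31 of the transcript, beyond the stretch shown. The core was in 20 of 26 genes that fell with TABS (76.9%) and in 6 of 9 that did not pass the test (66.7%). The variant was in 6 of 26 (23.1%) and 6 of 9 (66.7%), and either form in 21 of 26 (80.8%) and 9 of 9. No test was made of these shares. These matches describe the reference sequence, not binding in these cells.

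**Figure D1:**
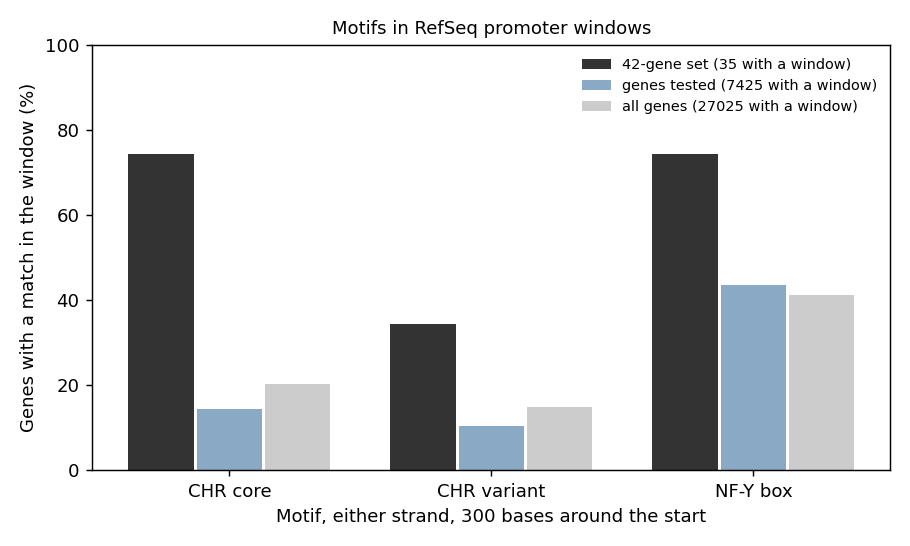
Bars give the percentage of genes with at least 1 match to the CHR core, its variant or the NF-Y box in RefSeq windows, for the 35 mitosis and G2/M genes with a window, 7425 tested genes and all 27025 genes. The CHR core was in 74.3% of the mitosis and G2/M genes and in 14.3% of tested genes.

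The libraries held 9908 to 10280 genes at 1 FPKM or more (fragments scaled to transcript length and to mapped fragments). Their depth is unknown, since low values did not resolve into whole fragments. HA/Mg replicate 6 (HA/Mg 6 for short, and likewise for the others) stood apart from its group. On the first principal component of the tested genes (40.2% of the variance) it lay at 2.62, with the other HA/Mg libraries at -12.7, -12.7 and -16.4 and TABS at 5.72 to 16.5. Results that rest on it are given with and without it. All 8 macrophage markers examined had a mean above 1 FPKM, and their summed level was 2150 to 2510 FPKM with TABS and 1820 to 2250 FPKM with HA/Mg. Of these 8, Cd68 and Csf1r passed the test as higher with TABS, and the part of these markers in the results was not tested. The call of Cd68 ended once HA/Mg 5, 7 or 8 was dropped (adjusted p from 0.0531 up to 0.0660), and Adgre1 passed as higher once TABS 8 or HA/Mg 6 was dropped (adjusted p from 0.0437 up to 0.0445). Summed markers of fibroblasts and osteoblasts reached 0.206 FPKM at most, and those of T cells and of epithelium 0.0235 and 0.022 FPKM. The T cell genes Cd3e, Cd3g and Trac and the epithelial genes Epcam, Krt18 and Cdh1 were listed at 0 in all 8 libraries. Of 7 osteoclast markers Calcr was listed at 0, and the summed level was 6.70 to 8.75 FPKM with TABS and 6.94 to 8.43 FPKM with HA/Mg. The labels do not say that the 4 libraries of a scaffold came from separate cultures, and p-values therefore measure only spread between libraries, which may be technical.

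Cells kept with TABS had lower levels of most mitotic genes. Of the 42 genes, all of which were abundant enough to be tested, 31 fell (73.8%), 0 rose and 11 did not pass, while 13.1% of all 10161 tested genes fell and 5.07% rose (18.1% in either direction). The falls ranged from 1.18-fold for Incenp to 2.03-fold for Kif20b as ratios of group means, and 11 genes were at least 1.5-fold lower. The median log2 change was -0.33, against -0.04 over all tested genes. Of the 42 changes 40 were negative, as were 5866 of all 10161. In 30 genes every HA/Mg library lay above every TABS library, as in 15.0% of all tested genes. Changes are differences of log2(FPKM + 1), TABS minus HA/Mg, which understate the change of low genes. The test was limma's moderated test with Benjamini-Hochberg adjustment over all tested genes and a threshold of 0.05. RNA of the whole culture was measured, so fewer cells in mitosis and less of each mRNA per dividing cell cannot be told apart.

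The number of genes that fell was 35 without HA/Mg replicate 6, where 24.1% of all tested genes fell. Dropping HA/Mg 5, 7 or 8 instead left 15 (3.16% of all genes), 15 (3.42%) and 16 (5.02%), and dropping TABS 5 left 19 (6.22%). For TABS 6, 7 and 8 the numbers were 22 (8.42%), 22 (6.55%) and 31 (8.77%). With no filter on low values it was 16, with 2.57% of 22906 genes lower. Median-of-ratios scaling left 24 (10.2%), with 2 rather than 6 among the cyclins and kinases. With same-numbered libraries taken as blocks, 0 of the 42 and 0 of all tested genes passed (smallest adjusted p 0.0589 by limma). The other pseudocounts, filters, scalings and limma options listed next gave 27 to 35 genes. Of all genes 13.0% and 13.1% fell for pseudocounts of 0.1 and 0.5, 13.1% and 16.4% for filters on the mean and 15.2% for equal sums. The share was 11.7% for quantile normalization, 12.7% with no mean-variance trend, 13.4% for robust moderation and 24.4% for array weights. The 27 came from the filter at a mean of 5 FPKM. That filter removed low members such as Kif20b and Cenpe, so this number is not out of 42. Under all 8 omissions of 1 library 14 genes kept their call, namely Fbxo5, Kif20b, Kif4, Nuf2, Bub1, Mad2l1, Ttk, Anln, Ect2, Prc1, Tpx2, Hmmr, Top2a and Mki67. The share of all tested genes lower under all 8 omissions was not counted. It can be 3.16% at most, the share lower without HA/Mg 5.

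**Figure D2:**
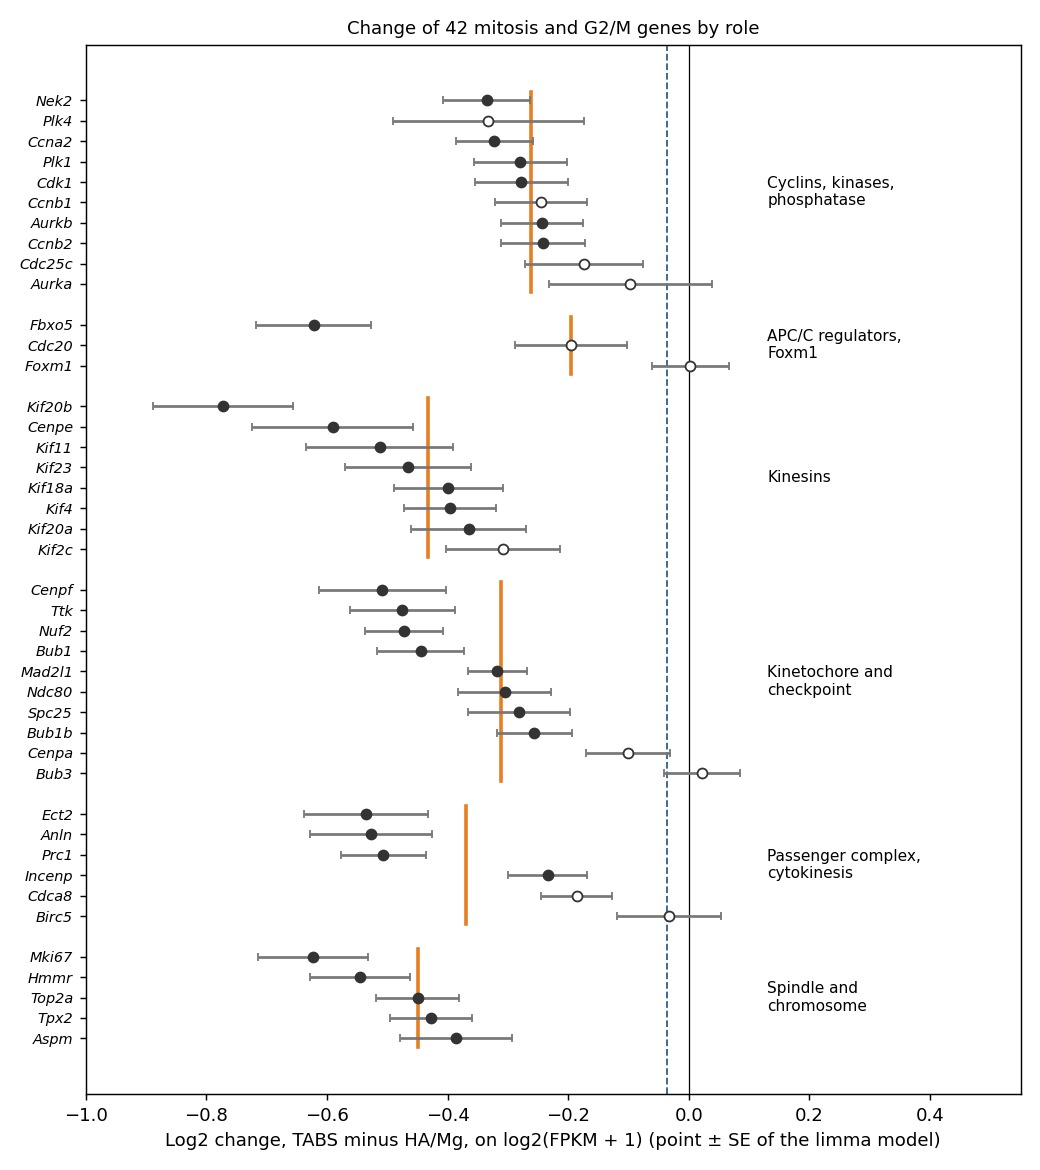
Points are the log2 change of each gene, TABS minus HA/Mg on log2(FPKM + 1), with bars of 1 standard error of the limma model. Filled points passed at an adjusted p under 0.05, orange lines are role group medians and the dashed line is the median of all 10161 tested genes. The medians lie between -0.45 for spindle and chromosome genes and -0.20 for the regulators of the anaphase-promoting complex and Foxm1.

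Among cyclins, mitotic kinases and the phosphatase Cdc25c, 6 of 10 fell (Ccna2, Ccnb2, Cdk1, Plk1, Aurkb and Nek2) and 4 did not pass (Ccnb1, Cdc25c, Plk4 and Aurka). Their median log2 change was -0.26. Ccna2 encodes cyclin A2, which drives S phase and entry into mitosis, and stood in HA/Mg replicates 5 to 8 at 39.7, 33.0, 36.1 and 33.9 FPKM and TABS replicates 5 to 8 at 27.2, 26.7, 29.6 and 29.6 FPKM. The groups did not overlap, and Ccna2 fell with a log2 change of -0.32 ± 0.06 (adjusted p = 0.0150). Cdk1, the kinase that cyclins A and B activate to start mitosis, stood in HA/Mg replicates 5 to 8 at 16.0, 15.6, 13.6 and 14.3 FPKM and TABS replicates 5 to 8 at 11.6, 10.9, 13.8 and 12.1 FPKM. TABS replicate 7 lay above HA/Mg replicate 7, and the gene fell with a log2 change of -0.28 ± 0.08 (adjusted p = 0.0388). Cyclin B1 (Ccnb1), the main partner of Cdk1, stood in HA/Mg replicates 5 to 8 at 37.4, 33.4, 36.3 and 35.0 FPKM and TABS replicates 5 to 8 at 26.5, 28.0, 31.3 and 34.0 FPKM. TABS replicate 8 lay above HA/Mg replicate 6, and the change was -0.25 ± 0.08 (adjusted p = 0.0517), just short of the threshold. It passed when HA/Mg 6 (adjusted p = 0.0346) or TABS 8 (0.0276) was dropped. Its relative Ccnb2, cyclin B2, fell with a log2 change of -0.24 ± 0.07 (adjusted p = 0.0426), from 54.1 ± 3.71 to 45.6 ± 3.97 FPKM (mean ± SD, n = 4 each).

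Plk1, the Polo kinase of mitotic entry and spindle assembly, stood in HA/Mg replicates 5 to 8 at 54.9, 47.6, 49.8 and 51.5 FPKM and TABS replicates 5 to 8 at 38.1, 37.9, 46.5 and 45.2 FPKM. The groups did not overlap, though TABS replicates 7 and 8 came close to HA/Mg replicate 6, and the gene fell with a log2 change of -0.28 ± 0.08 (adjusted p = 0.0378). Aurkb, the Aurora kinase that corrects wrong attachments at the centromere, was found in HA/Mg replicates 5 to 8 at 34.2, 30.6, 29.1 and 31.8 FPKM and TABS replicates 5 to 8 at 25.9, 23.8, 26.9 and 28.9 FPKM. Its highest TABS value, in replicate 8, lay just under its lowest HA/Mg value, in replicate 7. Aurkb fell with a log2 change of -0.24 ± 0.07 (adjusted p = 0.0387). Nek2, a kinase that parts the centrosomes, stood in HA/Mg replicates 5 to 8 at 18.8, 15.1, 18.2 and 17.9 FPKM and TABS replicates 5 to 8 at 12.8, 13.1, 14.0 and 14.5 FPKM, with no overlap, and fell with a log2 change of -0.34 ± 0.07 (adjusted p = 0.0180). Aurka, the centrosomal Aurora kinase, had a change of -0.10 ± 0.14 (adjusted p = 0.635), and its HA/Mg values ran from 39.0 FPKM in replicate 7 to 58.9 FPKM in replicate 5. Cdc25c, which activates Cdk1, changed by -0.17 ± 0.10 (adjusted p = 0.225) and Plk4, the kinase of centriole duplication, by -0.33 ± 0.16 (adjusted p = 0.160). Plk4 passed without HA/Mg replicate 6 (adjusted p = 0.023). The calls in this group depended on single libraries. That of Ccna2 ended once HA/Mg 7 was dropped (adjusted p = 0.0506) and that of Nek2 once HA/Mg 5, 7 or 8 was dropped (adjusted p from 0.0520 up to 0.0619). Plk1 lost its call once TABS 5 or 6 or HA/Mg 5, 7 or 8 was dropped (adjusted p from 0.0786 up to 0.106), and Aurkb once TABS 5, 6 or 7 or HA/Mg 5, 7 or 8 was dropped (adjusted p from 0.0618 up to 0.108). For Cdk1 the same happened once TABS 5, 6 or 8 or HA/Mg 5, 7 or 8 was dropped (adjusted p from 0.0618 up to 0.110), and for Ccnb2 once TABS 5, 6 or 7 or HA/Mg 5, 7 or 8 was dropped (adjusted p from 0.0664 up to 0.115).

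Of the regulators of the anaphase-promoting complex and of transcription, Fbxo5 fell and Cdc20 and Foxm1 did not pass. Fbxo5 encodes Emi1, which keeps the complex inactive through S and G2, and stood in HA/Mg replicates 5 to 8 at 11.4, 9.62, 11.02 and 11.8 FPKM and TABS replicates 5 to 8 at 5.97, 6.50, 6.43 and 8.27 FPKM. Every TABS library lay under every HA/Mg library. The gene was 1.61-fold lower and fell with a log2 change of -0.62 ± 0.10 (adjusted p = 0.00859), after Kif20b and Mki67 the largest change on that scale among the 42 genes, and its call stood without any single library. Cdc20, which switches the complex on in mitosis, stood in HA/Mg replicates 5 to 8 at 70.1, 62.8, 62.0 and 63.6 FPKM and TABS replicates 5 to 8 at 48.8, 50.8, 63.7 and 63.4 FPKM. TABS replicates 5 and 6 lay below all other libraries while TABS replicates 7 and 8 lay among the HA/Mg libraries, and the change was -0.20 ± 0.09 (adjusted p = 0.158). Foxm1, a transcription factor of the G2/M genes, stood in HA/Mg replicates 5 to 8 at 12.1, 10.2, 10.5 and 11.4 FPKM and TABS replicates 5 to 8 at 11.5, 10.7, 11.6 and 10.4 FPKM. The groups overlapped throughout, the change was 0.00263 ± 0.06 (adjusted p = 0.980), and its 95% interval was -0.141 to 0.147.

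Kinesins fell in 7 of 8 cases, with a median log2 change of -0.43, and in all 8 every HA/Mg library lay above every TABS library. Kif20b, a motor of the late spindle and the midbody, stood in HA/Mg replicates 5 to 8 at 5.21, 3.52, 4.90 and 5.85 FPKM and TABS replicates 5 to 8 at 2.45, 2.38, 2.22 and 2.56 FPKM. The TABS values lay close together, and the lowest HA/Mg value, in replicate 6, was still above them. Kif20b was 2.03-fold lower and fell with a log2 change of -0.77 ± 0.12 (adjusted p = 0.00859). Kif4, a chromokinesin that helps compact chromosomes and build the central spindle, stood in HA/Mg replicates 5 to 8 at 9.18, 7.29, 7.78 and 7.92 FPKM and TABS replicates 5 to 8 at 5.56, 5.89, 5.53 and 6.47 FPKM. It fell with a log2 change of -0.40 ± 0.08 (adjusted p = 0.0137), with no overlap. Kif23, the motor subunit of centralspindlin, which marks the site of cleavage, was found in HA/Mg replicates 5 to 8 at 6.54, 4.74, 6.19 and 6.92 FPKM and TABS replicates 5 to 8 at 4.001, 4.19, 3.67 and 4.62 FPKM. HA/Mg replicate 6 lay just above TABS replicate 8, and Kif23 fell with a log2 change of -0.47 ± 0.10 (adjusted p = 0.0207).

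Cenpe, which carries chromosomes to the metaphase plate, was 1.75-fold lower (2.17 ± 0.369 against 3.80 ± 0.797 FPKM, means ± SD of TABS and of HA/Mg, n = 4 each, adjusted p = 0.0207 by limma). Kif11, the motor that pushes the spindle poles apart, was 1.53-fold lower (4.87 ± 0.520 against 7.45 ± 1.40 FPKM) and fell with a log2 change of -0.51 ± 0.12 (adjusted p = 0.0245). Kif18a, which damps chromosome movements, was the lowest kinesin in level and 1.61-fold lower (1.11 ± 0.177 against 1.78 ± 0.261 FPKM, adjusted p = 0.0215). Kif20a, needed at the cleavage furrow, was 1.30-fold lower (18.2 ± 2.52 against 23.7 ± 1.79 FPKM, adjusted p = 0.0313). The eighth, Kif2c, which takes microtubules apart at centromeres, changed by -0.31 ± 0.09 (adjusted p = 0.0502) and passed when HA/Mg 6 (adjusted p = 0.0278) or TABS 8 (0.0416) was dropped. Kif20b and Kif4 kept their calls without any single library. The call of Kif23 ended once TABS 5 or 7 or HA/Mg 5, 7 or 8 was dropped (adjusted p from 0.0509 up to 0.0680), that of Kif11 once TABS 7 or 8 or HA/Mg 5, 7 or 8 was dropped (adjusted p from 0.0502 up to 0.0757) and that of Kif18a once TABS 5 or 7 or HA/Mg 5, 7 or 8 was dropped (adjusted p from 0.0529 up to 0.0716). Kif20a lost its call once TABS 5 or 6 or HA/Mg 5, 7 or 8 was dropped (adjusted p from 0.0610 up to 0.0919), and Cenpe once HA/Mg 5, 7 or 8 was dropped (adjusted p from 0.0552 up to 0.0658).

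Of the 10 kinetochore and checkpoint genes 8 fell and 2 did not pass, with a median log2 change of -0.31. Nuf2, a subunit of the Ndc80 complex that binds microtubules, stood in HA/Mg replicates 5 to 8 at 8.95, 7.79, 8.58 and 8.87 FPKM and TABS replicates 5 to 8 at 5.85, 5.90, 5.37 and 6.41 FPKM. The groups did not overlap, and Nuf2 fell with a log2 change of -0.47 ± 0.07 (adjusted p = 0.00851). Bub1, a checkpoint kinase of the kinetochore, stood in HA/Mg replicates 5 to 8 at 20.4, 15.7, 19.1 and 18.0 FPKM and TABS replicates 5 to 8 at 12.9, 12.8, 13.1 and 13.7 FPKM, with no overlap, and fell with a log2 change of -0.44 ± 0.07 (adjusted p = 0.00986). Mad2l1, the checkpoint protein that holds Cdc20 back, was found in HA/Mg replicates 5 to 8 at 10.7, 9.89, 10.7 and 10.3 FPKM and TABS replicates 5 to 8 at 7.85, 8.34, 7.99 and 8.40 FPKM. Both groups were tight, and Mad2l1 fell with a log2 change of -0.32 ± 0.05 (adjusted p = 0.00859). Bub3, which docks the Bub kinases on kinetochores and also has a role in splicing, stood in HA/Mg replicates 5 to 8 at 32.6, 31.3, 30.2 and 29.1 FPKM and TABS replicates 5 to 8 at 29.3, 28.8, 33.4 and 33.8 FPKM. The groups overlapped, TABS replicates 7 and 8 were the highest libraries, and the change was 0.02 ± 0.06 (adjusted p = 0.832) with a 95% interval of -0.121 to 0.164.

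Cenpf, a large protein of the kinetochore and nuclear matrix, was 1.90-fold lower at a low level (0.921 ± 0.129 against 1.75 ± 0.377 FPKM, adjusted p = 0.0166). It passed the filter on low values through HA/Mg, as 3 TABS libraries were under 1 FPKM. Ttk, the kinase that starts the checkpoint, was 1.52-fold lower (2.91 ± 0.336 against 4.44 ± 0.469 FPKM, adjusted p = 0.0130). Of the same complex as Nuf2, Ndc80 and Spc25 fell, Ndc80 by 0.31 ± 0.08 and Spc25 by 0.28 ± 0.08 on a log2 scale (adjusted p = 0.0293 and 0.0476). Its other subunit Spc24, not among the 42 genes, changed by -0.17 ± 0.08 (adjusted p = 0.159), with overlapping groups. The groups of Spc25 overlapped too, with TABS replicate 8 at 5.51 FPKM and HA/Mg replicate 6 at 5.26 FPKM. With length and GC trends removed the changes were -0.17 for Ndc80, -0.19 for Spc25 and -0.26 for Spc24. None of these passed by limma (adjusted p = 0.129, 0.162 and 0.0721). Bub1b, the checkpoint protein BubR1, had the highest level of all 42 genes and fell from 77.9 ± 6.30 to 65.0 ± 3.01 FPKM (adjusted p = 0.0262). The centromeric histone Cenpa changed by -0.10 ± 0.07 (adjusted p = 0.317). Nuf2, Bub1, Mad2l1 and Ttk kept their calls without any single library. Cenpf lost its call once HA/Mg 5 was dropped (adjusted p = 0.0570), Ndc80 once TABS 5, 6 or 7 or HA/Mg 5, 7 or 8 was dropped (adjusted p from 0.0548 up to 0.0888), Spc25 once TABS 5, 6 or 7 or HA/Mg 5, 7 or 8 was dropped (adjusted p from 0.0946 up to 0.120) and Bub1b once TABS 5 or 6 or HA/Mg 5, 7 or 8 was dropped (adjusted p from 0.0585 up to 0.0795).

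In the chromosomal passenger complex and cytokinesis 4 of 6 genes fell, with a median log2 change of -0.37. The 3 cytokinesis genes had the larger changes. Prc1, which bundles the microtubules of the central spindle, stood in HA/Mg replicates 5 to 8 at 8.49, 7.37, 8.66 and 7.66 FPKM and TABS replicates 5 to 8 at 4.96, 5.14, 5.49 and 5.88 FPKM. Its groups did not overlap, and it fell with a log2 change of -0.51 ± 0.07 (adjusted p = 0.00851). Anln encodes anillin, the scaffold of the contractile ring, and stood in HA/Mg replicates 5 to 8 at 9.51, 6.89, 8.27 and 8.85 FPKM and TABS replicates 5 to 8 at 4.98, 5.75, 4.95 and 6.32 FPKM. HA/Mg replicate 6 was nearest to TABS replicate 8, and Anln fell with a log2 change of -0.53 ± 0.10 (adjusted p = 0.0138). Ect2, which activates RhoA at the furrow, was found in HA/Mg replicates 5 to 8 at 10.1, 7.24, 8.49 and 9.81 FPKM and TABS replicates 5 to 8 at 5.48, 5.80, 5.32 and 6.66 FPKM, with no overlap, and fell with a log2 change of -0.53 ± 0.10 (adjusted p = 0.0138). These 3 calls stood without any single library. Of the passenger complex, whose enzyme is Aurkb, the scaffold Incenp fell with a log2 change of -0.23 ± 0.07 (adjusted p = 0.0399). Its call held only with all 8 libraries or without HA/Mg replicate 6, since it ended once TABS 5, 6, 7 or 8 or HA/Mg 5, 7 or 8 was dropped (adjusted p from 0.0529 up to 0.111). Cdca8 (borealin) changed by -0.19 ± 0.06 (adjusted p = 0.0576), with no overlap, and passed when HA/Mg 6 (adjusted p = 0.0404) or TABS 8 (0.042) was dropped. Birc5 (survivin) changed by -0.03 ± 0.09 (adjusted p = 0.815), with a 95% interval of -0.226 to 0.161.

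All 5 spindle and chromosome genes fell, with a median log2 change of -0.45 and no overlap in any of them. Mki67, whose product coats mitotic chromosomes and marks cycling cells, stood in HA/Mg replicates 5 to 8 at 18.2, 14.0, 17.4 and 18.7 FPKM and TABS replicates 5 to 8 at 11.4, 11.1, 9.60 and 10.7 FPKM. Its TABS values lay close together, and it fell with a log2 change of -0.62 ± 0.09 (adjusted p = 0.00859). Top2a, the topoisomerase that untangles sister chromatids, was found in HA/Mg replicates 5 to 8 at 35.6, 29.6, 33.7 and 32.2 FPKM and TABS replicates 5 to 8 at 22.3, 23.8, 22.5 and 26.3 FPKM. Each TABS library was below each HA/Mg library, and Top2a fell with a log2 change of -0.45 ± 0.07 (adjusted p = 0.00882). Hmmr, which organises spindle microtubules, stood in HA/Mg replicates 5 to 8 at 16.1, 13.3, 14.1 and 14.0 FPKM and TABS replicates 5 to 8 at 8.12, 9.73, 9.67 and 10.7 FPKM, and fell with a log2 change of -0.55 ± 0.08 (adjusted p = 0.00859). Tpx2, the activator of Aurora A on the spindle, fell with a log2 change of -0.43 ± 0.07 (adjusted p = 0.00940), from 40.9 to 30.2 FPKM. Aspm, a spindle pole protein, was low and fell with a log2 change of -0.39 ± 0.09 (adjusted p = 0.0247). Its call ended once TABS 5 or 7 or HA/Mg 5, 7 or 8 was dropped (adjusted p from 0.0607 up to 0.0796), while the other 4 kept theirs without any single library.

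**Figure D3:**
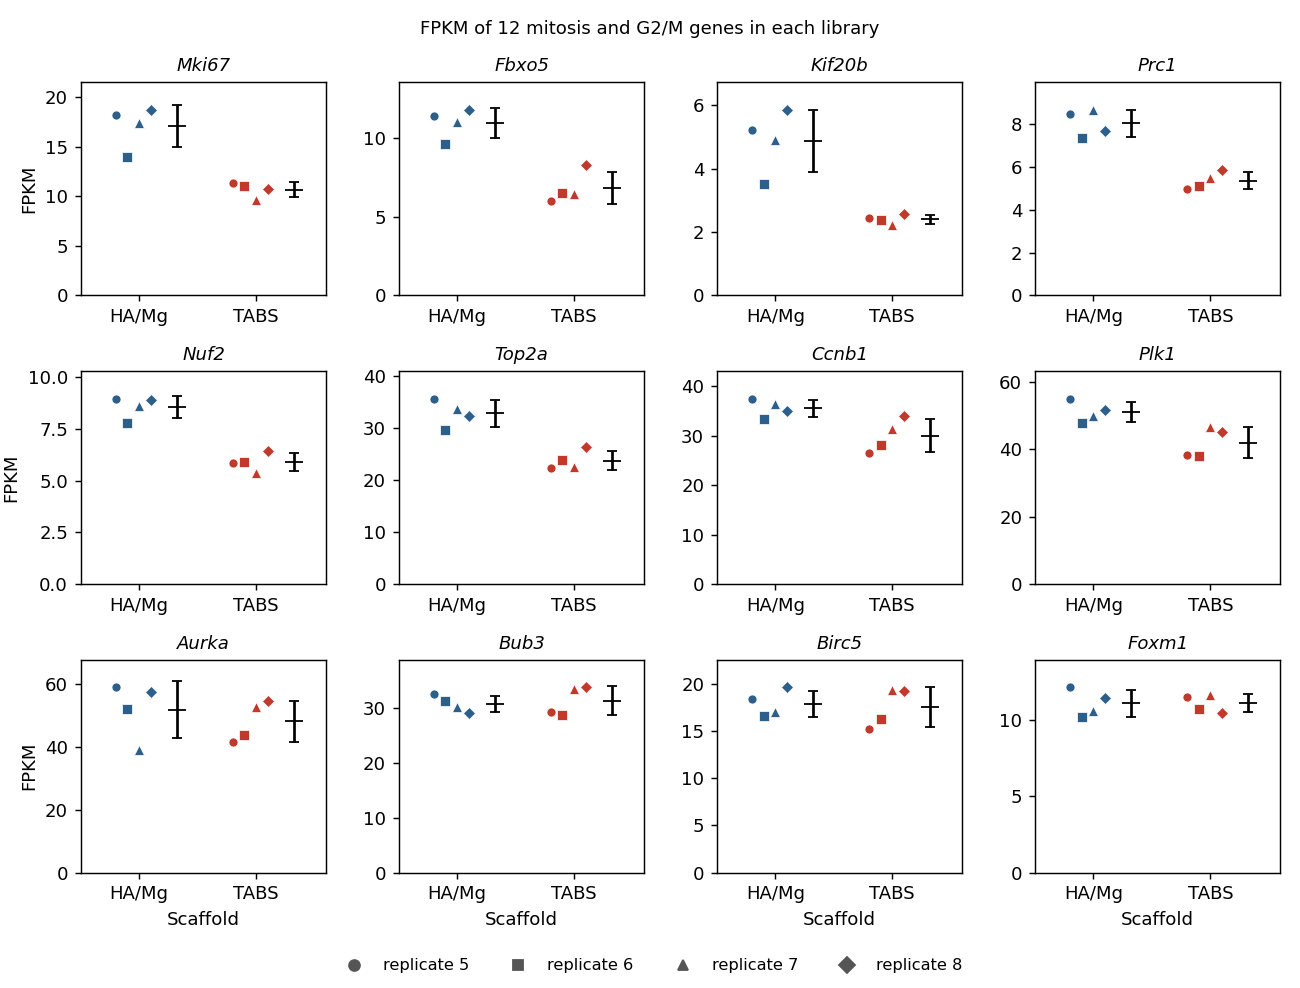
Points are the FPKM of 12 genes in each library (marker shapes are replicates 5 to 8), with the mean and SD of each group (n = 4) beside them and the vertical axis from 0. Mki67, Fbxo5, Kif20b, Prc1, Nuf2, Top2a and Plk1 show no overlap between the scaffolds, while Ccnb1, Aurka, Bub3, Birc5 and Foxm1 overlap.

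On GRCm38, Kif20b (ENSMUSG00000024795) lies on chromosome 19 (plus strand), bases 34922361 to 34975745, and Fbxo5 (ENSMUSG00000019773) on chromosome 10 (minus strand), bases 5799160 to 5805600. Prc1 (ENSMUSG00000038943) occupies chromosome 7 (plus strand), bases 80294450 to 80316259, Nuf2 (ENSMUSG00000026683) chromosome 1 (minus strand), bases 169497934 to 169531464 and Bub1 (ENSMUSG00000027379) chromosome 2 (minus strand), bases 127801122 to 127831865. Ccnb1 (ENSMUSG00000041431) spans chromosome 13 (minus strand), bases 100778650 to 100786570, and Cdk1 (ENSMUSG00000019942) chromosome 10 (minus strand), bases 69335146 to 69352938. Values are over whole genes. In 6 of the 42 genes exons overlap those of a tested gene on the opposite strand, and the sources used here do not say whether counting used strand. These pairs are Ccna2 with Exosc9, Cdc20 with Elovl1, Kif20a with Cdc23, Kif4 with Pdzd11, Kif18a with Mettl15 and Cdca8 with 9930104L06Rik, and their values are uncertain to that extent.

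The libraries of a group were not alike. HA/Mg replicate 6 was the lowest HA/Mg library in 37 of 42 genes, as in 50.1% of all tested genes. The median deviation of the 42 genes from their own means was 0.03 (log2) in this library, 0.30, 0.19 and 0.21 in HA/Mg replicates 5, 7 and 8, and -0.24, -0.21, -0.17 and -0.08 in TABS replicates 5 to 8. Over all tested genes these medians lay between -0.05 and 0.05. TABS replicate 8 was the highest TABS library in 31 of 42 genes, which was not counted over all tested genes. A split within TABS was noticed after the values were seen. TABS replicates 7 and 8 both lay above replicates 5 and 6 in 22 of 42 genes (20.8% of all tested genes), among them all 10 cyclins, kinases and phosphatase, 6 of 10 kinetochore and checkpoint genes, 3 of 6 passenger and cytokinesis genes, 1 of 3 regulators of the anaphase-promoting complex and Foxm1, 2 of 8 kinesins and 0 of 5 spindle and chromosome genes. The cyclins and kinases had median deviations of -0.23 and -0.25 in TABS replicates 5 and 6 and of -0.06 and 0.02 in replicates 7 and 8. In kinesins these were -0.29 and -0.19 in replicates 5 and 6 and -0.33 and -0.08 in replicates 7 and 8. What sets these libraries apart was not tested, and no test was made between role groups.

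**Figure D4:**
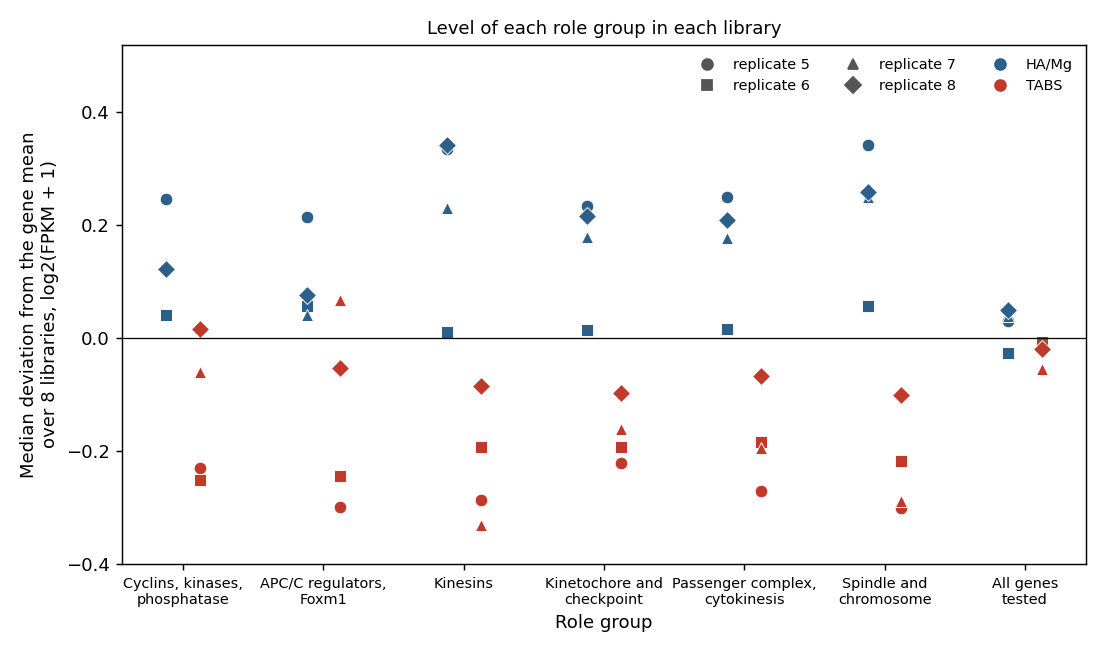
Each point is the median, over the genes of a role group, of the deviation of log2(FPKM + 1) from each gene's mean over 8 libraries, for HA/Mg (blue) and TABS (red), with marker shapes for replicates 5 to 8. TABS medians lie below 0 except for replicate 8 in the cyclins and kinases (0.02) and replicate 7 in the regulators of the anaphase-promoting complex and Foxm1 (0.07).

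GC content moved with the size of the change. Across the 42 genes, which share libraries and are not independent replicates, the log2 change had a Spearman correlation of 0.60 with the GC content of the longest transcript and -0.47 with its length. Over all tested genes the values were 0.54 and -0.31. The 31 genes that fell had a median GC content of 44.3%, the 11 others 47.9% and all tested genes 49.8%. With trends on GC content and transcript length removed from every library, 23 of the 42 genes fell (6.36% of all genes) with a median change of -0.32. All 23 were among the 31. The 8 calls that ended were those of Cdk1, Kif11, Kif20a, Kif18a, Ndc80, Spc25, Mad2l1 and Aspm (adjusted p of 0.0562 to 0.162). Kif20b changed by -0.59 ± 0.09 after removal, Fbxo5 by -0.56 ± 0.09 and Mki67 by -0.50 ± 0.06 (adjusted p = 0.0166, 0.0194 and 0.0102). Mad2l1, whose long transcript has a GC content of 40.1%, went from -0.32 to -0.12 (adjusted p = 0.131). Some genes moved further from 0, Plk1 from -0.28 to -0.40 and Cdc20 from -0.20 to -0.32 (adjusted p = 0.0241 and 0.0530). Kinesins that fell went from 7 to 4 of 8 and kinetochore genes from 8 to 5 of 10. Role group medians were then -0.32 (from -0.20) for the regulators of the anaphase-promoting complex and Foxm1, -0.24 for cyclins and kinases, -0.35 for kinesins, -0.23 for kinetochore genes, -0.35 for passenger and cytokinesis genes and -0.37 for spindle and chromosome genes. Without HA/Mg replicate 6 as well, 28 of the 42 fell (16.7% of all genes). Of the 14 genes that kept their call without any single library, 13 also kept it with trends removed and all 8 libraries in. The other was Mad2l1.

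**Figure D5:**
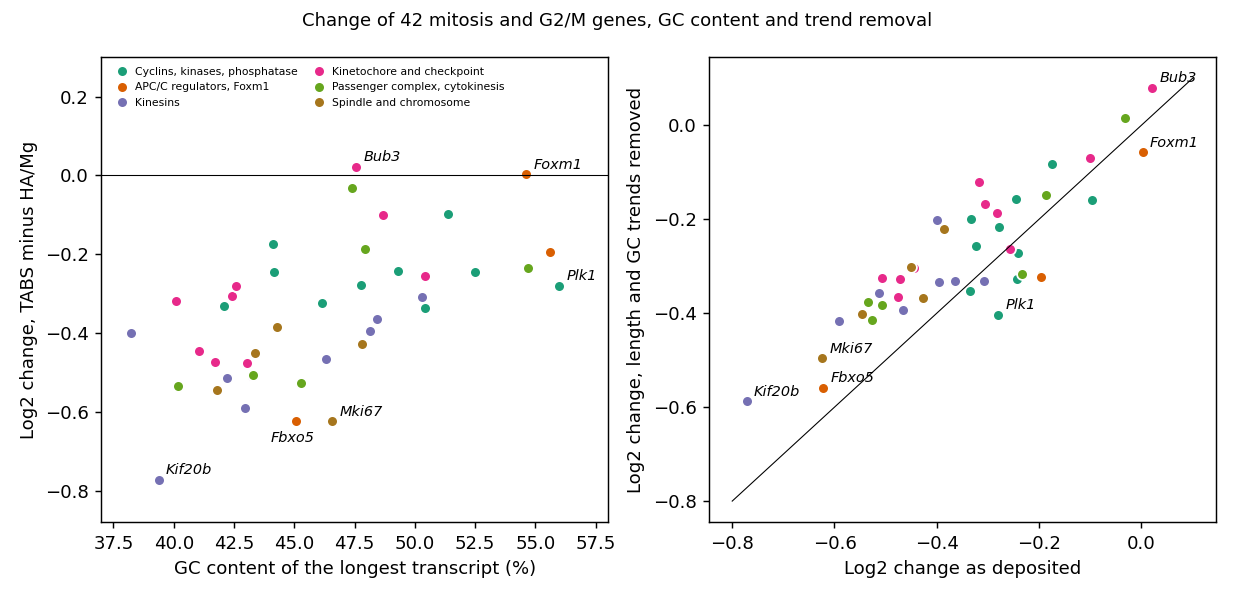
Left, log2 change (TABS minus HA/Mg) of the 42 genes against the GC content of the longest transcript in percent. Right, the change after removal of length and GC trends against the change as deposited, with the line of equality; colours are role groups. Kif20b, at 39.4% GC, has the lowest value in both panels, and Foxm1 and Bub3 lie near 0.

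Other cell cycle genes came from lists drawn up with the members, and their shares are read against the 13.1% of all tested genes that fell. Of 31 tested further kinetochore genes 12 fell (38.7%), 0 rose and 19 did not pass (median -0.22). They included Sgo2a, a shugoshin that guards centromere cohesion (1.67 ± 0.199 against 2.93 ± 0.258 FPKM, adjusted p = 0.00851), Cenpq (6.58 ± 0.604 against 9.19 ± 0.442 FPKM, adjusted p = 0.00924) and Ska3, of the Ska complex (4.80 ± 0.304 against 7.10 ± 0.776 FPKM, adjusted p = 0.00984). Of 23 further spindle and motor genes 12 fell (52.2%) and 11 did not pass (median -0.27), among them the microtubule polymerase Ckap5 (12.1 ± 1.12 against 17.0 ± 1.55 FPKM, adjusted p = 0.0125), the kinesin Kif15 and the spindle protein Spag5. The call of Kif15 ended once HA/Mg 5 was dropped (adjusted p = 0.0508) and that of Spag5 once HA/Mg 5, 7 or 8 was dropped (adjusted p from 0.0503 up to 0.0628). With length and GC trends removed 6 of these kinetochore genes and 5 of these spindle and motor genes were lower, against 6.36% of all genes. The numbers were 18 and 16 when HA/Mg replicate 6 was left out, against 24.1% of all genes. In that case the kinetochore gene Cenpm was higher (adjusted p = 0.0455). Of 7 further cytokinesis genes 1 fell (14.3%, near the share of all genes), Shcbp1 (3.32 ± 0.429 against 4.96 ± 0.381 FPKM, adjusted p = 0.0129). Of 36 other regulators of mitosis 7 fell (19.4%) and 29 did not pass (median -0.13), with Cdca2, a phosphatase subunit of mitotic chromosomes (6.95 ± 0.569 against 9.77 ± 0.936 FPKM, adjusted p = 0.0125), the checkpoint kinase Chek1 (2.56 ± 0.180 against 3.49 ± 0.143 FPKM, adjusted p = 0.0126) and Depdc1a. When HA/Mg replicate 6 was left out, 16 of the 36 were lower and 1 was higher. Of all 10161 tested genes 24.1% were then lower and 868 genes were higher. The call of Chek1 ended when length and GC trends were removed (adjusted p = 0.0530) and that of Depdc1a once HA/Mg 5 was dropped (adjusted p = 0.0541).

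The upstream regulators were mixed. Of 13 tested genes of the MuvB, E2F and pocket protein complexes 6 fell (46.2%) and 7 did not pass (median -0.22). Mybl2, which encodes B-Myb, changed by -0.05 ± 0.07 (adjusted p = 0.637). Lin54, the MuvB subunit that binds the CHR, fell with a log2 change of -0.43 ± 0.10 (adjusted p = 0.0194), from 5.65 to 3.92 FPKM. Rbl1, the pocket protein p107, fell with a log2 change of -0.41 ± 0.08 (adjusted p = 0.0157) and Tfdp1, the partner of E2F factors, with a log2 change of -0.51 ± 0.12 (adjusted p = 0.0207). The call of Lin54 ended once HA/Mg 5, 7 or 8 was dropped (adjusted p from 0.0552 up to 0.0659), that of Rbl1 once HA/Mg 5 or 7 was dropped (adjusted p from 0.0525 up to 0.0550) and that of Tfdp1 once HA/Mg 5, 7 or 8 was dropped (adjusted p from 0.0584 up to 0.0619). Among 12 tested G1 cyclins, their kinases and the inhibitors 0 passed in either direction (median -0.10). With length and GC trends removed 1 of them rose, as did 203 of all 10157 genes. Without HA/Mg replicate 6, 1 of them fell, against 24.1% of all genes. Ccnd1, cyclin D1, stood at 30.1 ± 3.09 against 35.1 ± 2.46 FPKM (adjusted p = 0.0741), and the inhibitor Cdkn1a (p21) at 98.8 ± 9.87 against 93.8 ± 3.53 FPKM (adjusted p = 0.496). The inhibitor genes Cdkn1c, Cdkn2a and Cdkn2b were listed at 0 in all libraries. Ccne2, cyclin E2, was too low to be tested and stood at 0.652 ± 0.113 against 1.23 ± 0.377 FPKM, with overlapping groups.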

How the data were processed

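RNA-seq libraries of RAW264.7 cells (4 kept with TABS, 4 with HA/Mg) were analysed from 1 table of FPKM values that the authors deposited for 55335 Ensembl gene identifiers, of which 55154 matched GENCODE M21 (GRCm38). Per the labels' protocols, RNA came from a TRIzol extraction and libraries from the NEBNext Ultra RNA kit. The submitters' processing notes name fastp, STAR, DESeq2 and GRCm38, with no role given. The sources used here do not say which tool made the FPKM values, nor the annotation or any use of strand. FPKM divides by a library total, so abundant transcripts lower all others. Low values of genes with 1 transcript were whole multiples of a common step, within 0.05 of a step, in only 27.3% to 32.8% of cases, so counts were not recovered and depth is unknown.

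The 10161 genes with 4 or more of the 8 libraries at 1 FPKM or above entered limma 3.58.1 (R 4.3.3), a two-sided linear model of log2(FPKM + 1) with a mean-variance trend and Benjamini-Hochberg adjustment. The steps were tested on simulated data. Length and GC trends were removed from each library with natural splines of 4 degrees of freedom. Intervals are 95% from limma. Promoters came from RefSeq. The members, lists and tests were chosen with earlier results of these data known. Values in each library are given for the 3 members of each role group with the smallest adjusted p and for 8 members fixed by name. Other genes named are up to 3 per list and direction by adjusted p, with Cdkn1a, Ccnd1, Mybl2 and Lin54. Other genes outside this rule (Spc24, Cenpm, Ccne2, Cd68, Csf1r and other cell type markers, and inhibitors listed at 0) were chosen after their values were seen.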

Additional observations from a re-analysis of the deposited data

Results flagged for a closer look

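A test for a library far from the 3 others of its group was made for 116 sets of 4 libraries (the 42 members and the other genes named, each in both groups), and chance gives about 1 such set in 20. It picked out 2. Plk4, the kinase of centriole duplication, was at 5.72 FPKM in TABS replicate 8, against 3.75 to 3.999 FPKM in the other TABS libraries. Lin54, the MuvB subunit that binds the CHR, was at 4.64 FPKM in HA/Mg replicate 6, against 5.95 to 6.04 FPKM in the other HA/Mg libraries.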

How the results depend on the processing

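The number of members lower with TABS (31) stayed within 1.5 times, at 23 to 35, under both other pseudocounts, the filters on the mean, median-of-ratios scaling, equal sums, quantile normalization, removal of length and GC trends, no mean-variance trend, robust moderation and array weights. It fell to 16 with no filter on low values. The number of all genes changed (1842) was 808 with no filter, 849 with the trends removed and 3532 with array weights. Leaving out 1 library in turn gave 15 to 35 members lower and 429 to 3320 genes changed. Median-of-ratios scaling moved the median change of all genes from -0.04 to 0.01 and ended 7 of the 31 calls (Ccnb2, Cdk1, Plk1, Aurkb, Kif20a, Spc25 and Incenp). Of the 42 members 39 had a negative change in all 23 settings, which was not counted over all tested genes. The cause of these differences was not tested. With the replicate block 0 members and 0 genes passed (smallest adjusted p 0.0589). At an unadjusted p under 0.05 in that fit 35 members were lower, and 2987 of all 10161 tested genes differed in either direction. The labels pair no libraries. Same-numbered libraries deviated from their group means with correlations of 0.0106, -0.275, -0.16 and 0.128, and libraries of unlike number with -0.251 to 0.382. With so few libraries these values cannot show whether same-numbered libraries shared a culture or a preparation. Removing the trends while also leaving out HA/Mg replicate 6 was chosen after seeing the data.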
